A study of Homo sapiens with 3 samples.

Results

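Genes that the transcription factor NRF2 controls, the 2 ferritin genes and GPX3 were followed gene by gene in single OVCAR3 cells. The set holds 10 of the 36601 genes in the count tables, taken by symbol: SLC7A11, GCLC, GCLM, TXNRD1, SRXN1, NQO1, HMOX1, FTL, FTH1 and GPX3. All 10 were found in each table. OVCAR3 is an established cell line that serves as a model of high-grade serous ovarian cancer, the most common and most lethal form of the disease. Cells were treated for 48 h with the solvent DMSO, with 50 µM of RAC1i (NSC23766, an inhibitor that keeps the small GTPase RAC1 from being activated), or with Combo, which was 50 µM of RAC1i together with 5 µM of EZH2i (GSK126, an inhibitor of the histone methyltransferase EZH2). Both treated cultures thus carried RAC1i, and cells given EZH2i by itself were not analysed here, so the part of EZH2i in Combo cannot be told apart from its action on top of RAC1i. Each condition was 1 library of 1 cell line, so no test between conditions was possible. Every interval below is a 95% interval that covers counting error only, and not the spread between cultures.

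NRF2 is held in the cytoplasm and sent for degradation by KEAP1, an adaptor of a CUL3 ubiquitin ligase. When reactive molecules modify KEAP1, NRF2 enters the nucleus, pairs with a small MAF protein and binds antioxidant response elements in genes for glutathione synthesis, thioredoxin recycling, quinone reduction and haem breakdown, while BACH1 competes for the same elements. Ferritin is a hollow shell of heavy (FTH1) and light (FTL) chains that stores iron, and besides NRF2 its synthesis answers to iron through iron regulatory proteins that bind the ferritin messenger RNA. GPX3 is a secreted selenoprotein that reduces peroxides with glutathione, and is known in serous ovarian cancer for its links to survival of detached tumor cells.

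Promoter sequence is shown for the genes of the set in which the core of an antioxidant response element was found before the start site, GCLM and TXNRD1. Sequences come from RefSeq on GRCh38.p14, in a table that held windows of 250 bases before to 50 bases after the start site for 7 of the 10 genes. The promoters of HMOX1, SLC7A11 and FTH1 were not analysed here. The letters searched were TGACNNNGC on both strands, and they were found in 3 of the 8 windows of these genes (TXNRD1 has 2) and in 13.3% of all 35116 windows. TXNRD1 had further matches across its start site and before a second RefSeq start site. The letters TGANTCA, bound by AP-1, were in 0 of the 8 windows and in 7.71% of all windows. Capitals mark the matched letters of the antioxidant response element. In GCLM the match lay on the strand opposite to the gene, from 34 to 26 bases before the RefSeq start site. GENCODE 44 starts GCLM further upstream, at base 93909456, which is the last base of the match. The stretch shown was cut there to 225 bases, and is chr1:93909456-93909680 on the minus strand. In TXNRD1 the match lay on the strand of the gene, from 99 to 91 bases before the start site, and the stretch shown is chr12:104215529-104215778 on the plus strand.
GCLM: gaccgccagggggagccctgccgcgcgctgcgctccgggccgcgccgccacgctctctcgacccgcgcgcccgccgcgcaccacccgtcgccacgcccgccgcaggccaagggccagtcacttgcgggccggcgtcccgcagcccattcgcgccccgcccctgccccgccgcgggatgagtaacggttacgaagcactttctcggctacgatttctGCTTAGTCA
TXNRD1: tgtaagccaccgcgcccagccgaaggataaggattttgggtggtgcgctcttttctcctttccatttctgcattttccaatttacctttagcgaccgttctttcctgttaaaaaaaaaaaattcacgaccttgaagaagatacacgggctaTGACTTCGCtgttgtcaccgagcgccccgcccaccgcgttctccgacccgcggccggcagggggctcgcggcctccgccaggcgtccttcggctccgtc

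For FTL, the transcribed bases were also searched, since the hairpin to which iron regulatory proteins bind carries the loop CAGTGN. The loop, in capitals, spans bases 39 to 44 of the FTL transcript, in its 5′ untranslated region, within chr19:48965335-48965358 on the plus strand. The same letters were found on the sense strand in the first 50 transcribed bases of 6.36% of all 35116 windows, and of the 7 genes with a window only FTL held them.
FTL: ctcttgcttcaaCAGTGTttggac

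After removal of cells by the limits of the study's methods, 7531 cells were kept for DMSO, 10215 for RAC1i and 8239 for Combo. Their median depth was 26750, 20989 and 24953 UMIs (unique molecular identifiers, each counted as 1 captured RNA molecule) per cell, and the sums over kept cells were 199063947, 234969742 and 212792113 UMIs. The median share of UMIs from mitochondrial genes was 5.60% in DMSO against 1.66% with RAC1i and 1.58% with Combo. In all, 8 markers of serous ovarian epithelium summed to 3993, 2118 and 2338 CPM (UMIs scaled to a common library total), and no marker of leukocytes, fibroblasts, endothelium or red cells reached 10 CPM in any library. Between 15 and 23 kept cell barcodes were shared by each pair of libraries. Since each library was scaled to its own total, the median log2 ratio of all genes that reached 10 CPM in either library was −0.20 for RAC1i over DMSO (8778 genes) and −0.18 for Combo over DMSO (8745 genes). Median ratios of groups of genes and the log2 ratios of NQO1 are to be read beside these medians. Ratios of single genes and calls at 1.5-fold are against DMSO and were not shifted by them.

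Most genes of the set were lower under RAC1i, SLC7A11 most of all, while HMOX1 was higher. Between RAC1i and DMSO, 6 of the 10 genes were over 1.5-fold lower (SLC7A11, GCLM, TXNRD1, GPX3, FTL and GCLC), 1 was over 1.5-fold higher (HMOX1), and NQO1, FTH1 and SRXN1 lay between. The same fold lower was passed by 36.9% of all genes that reached 10 CPM in either library, and the same fold higher by 22.7%. Over all genes with any UMI, which is the fairer base for HMOX1, 39.6% were higher and 34% lower. Between Combo and DMSO, 7 of the 10 genes were over 1.5-fold lower (the same 6 and FTH1) and HMOX1 was again over 1.5-fold higher, beside 35.4% of all genes lower and 21.3% higher at that level, or 34.2% lower and 38% higher over all genes with any UMI. The median log2 ratio over the 10 genes was −0.95 for RAC1i and −0.88 for Combo. Both comparisons share the DMSO library and are therefore not independent of each other. Measured from the median of all genes, SRXN1 in Combo lay past 1.5-fold, at a log2 difference of 0.67. FTH1 in Combo then did not, at −0.49. HMOX1 did not reach 10 CPM in any library, SLC7A11, GCLM and GCLC reached it in DMSO only, and SRXN1 reached it in the treated libraries only. In the plot of log2 ratios by gene, the counting intervals are narrow beside the distance from 0 for most genes.

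**Figure D1:**
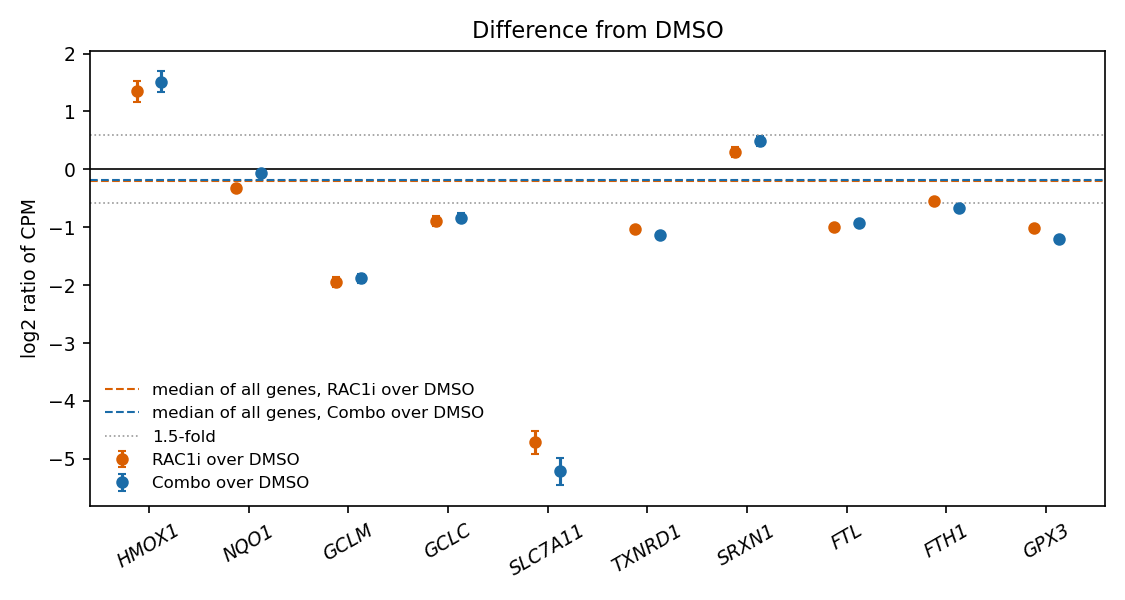
Log2 ratio of CPM to DMSO for each of the 10 genes in RAC1i and Combo, with 95% counting intervals as bars, the medians of all genes as dashed lines and 1.5-fold as dotted lines. SLC7A11 lies lowest at −4.71 and −5.22, and HMOX1 highest at 1.35 and 1.51.

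SLC7A11, GCLM and GCLC, the members that serve glutathione synthesis, were over 1.5-fold lower in both treated libraries. SLC7A11 (ENSG00000151012, chr4:138164097-138242349, minus strand), the transporter subunit that imports cystine for glutathione, was at 26.01 CPM in DMSO against 0.992 CPM with RAC1i and 0.700 CPM with Combo, from 5178, 233 and 149 UMIs. It was 26.2-fold lower in RAC1i (23.0 to 30.04) and 37.1-fold lower in Combo (31.6 to 44.02) than in DMSO. The size depended on the cells compared: the ratio was 0.120 in RAC1i and 0.0828 in Combo in cells with under 2% mitochondrial UMIs, and 0.225 and 0.145 in cells of 5000 to 10000 UMIs. Only 0.0456% of the tested genes had a lower ratio in RAC1i over DMSO, and 0.0229% in Combo over DMSO. With CPM averaged over cells in place of a sum over cells, the log2 ratio for Combo was −4.35 rather than −5.22, a move of 1.82-fold that kept the gene far below the median of all genes. The antisense gene SLC7A11-AS1 overlaps SLC7A11 on the opposite strand, and the 3′ kit keeps strand. The partner with which SLC7A11 forms the exchanger, SLC3A2, went the other way in level, at 184 CPM in DMSO against 473 CPM with RAC1i and 488 CPM with Combo.

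GCLM (ENSG00000023909, chr1:93885199-93909456, minus strand), the modifier subunit of glutamate-cysteine ligase, was at 25.4 CPM in DMSO against 6.60 CPM with RAC1i and 6.87 CPM with Combo. Its ratio to DMSO was 0.260 (0.246 to 0.275) in RAC1i and 0.271 (0.255 to 0.287) in Combo. GCLC (ENSG00000001084, chr6:53497341-53616970, minus strand), the catalytic subunit of the same enzyme, was at 16.3 CPM in DMSO against 8.79 CPM with RAC1i and 9.14 CPM with Combo. Its ratio was 0.540 (0.510 to 0.570) in RAC1i and 0.561 (0.530 to 0.594) in Combo. The modifier subunit thus differed more from DMSO than the catalytic subunit, with intervals that did not overlap. Both subunits were at like levels in RAC1i and Combo. Another gene on the same strand, ENSG00000231683, overlaps GCLC, so reads shared by both could be left out of either count. GSS, which adds glycine in the last step of glutathione synthesis, had a ratio of 0.326 in RAC1i and 0.406 in Combo.

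TXNRD1 and SRXN1 recycle thioredoxin and oxidized peroxiredoxins. Summed over all cells, TXNRD1 was over 1.5-fold lower in both treated libraries, while SRXN1 was higher but short of 1.5-fold. TXNRD1 (ENSG00000198431, chr12:104215779-104350307, plus strand), the cytosolic thioredoxin reductase and a selenoprotein, was at 212 CPM in DMSO against 104 CPM with RAC1i and 96.3 CPM with Combo. Its ratio to DMSO was 0.490 (0.482 to 0.498) in RAC1i and 0.455 (0.447 to 0.462) in Combo. SRXN1 (ENSG00000271303, chr20:646615-653200, minus strand), the sulfiredoxin that restores overoxidized peroxiredoxins, was at 9.34 CPM in DMSO against 11.6 CPM with RAC1i and 13.1 CPM with Combo. It was 1.24-fold higher (1.17 to 1.31) in RAC1i and 1.41-fold higher (1.33 to 1.49) in Combo. With DESeq2 size factors SRXN1 passed 1.5-fold in Combo, at a log2 ratio of 0.61. SRXN1 also passed it in cells with under 2% mitochondrial UMIs, at 1.52-fold (1.26 to 1.84) in RAC1i and 1.76-fold (1.46 to 2.13) in Combo, and in Combo cells over 40000 UMIs, at 1.54-fold (1.41 to 1.69). It lay below DMSO, with intervals that spanned 1, in RAC1i cells of 5000 to 10000 UMIs (0.936, 0.625 to 1.41) and in Combo cells with 5 to 20% mitochondrial UMIs (0.946, 0.707 to 1.24). EID3, another gene on the same strand, lies within TXNRD1, so reads shared by both could be left out of either count.

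NQO1 (ENSG00000181019, chr16:69706996-69726668, minus strand), which reduces quinones and is a classical readout of NRF2, differed least from DMSO among the genes of the set in Combo when summed over all cells. It was at 80.9 CPM in DMSO against 64.8 CPM with RAC1i and 77.1 CPM with Combo. Its log2 ratio to DMSO was −0.32 in RAC1i and −0.07 in Combo, beside medians of −0.20 and −0.18 for all genes. In Combo the sign of the NQO1 difference turned with the scaling, to 0.02 with TMM factors and 0.05 with DESeq2 size factors. The largest move was the other way, with CPM averaged over cells, to −0.35 in Combo and −0.54 in RAC1i. In cells of 5000 to 10000 UMIs, NQO1 was at a ratio of 0.449 (0.398 to 0.506) in RAC1i over DMSO, while in the 3 deeper bands its ratio lay between 0.795 and 0.846. In Combo over DMSO the NQO1 ratio was 0.405 (0.352 to 0.464) in that shallow band and 0.911 to 1.01 in the deeper bands. By mitochondrial share it was 0.669 in Combo cells with under 2%, 1.01 in those with 2 to 5% and 0.535 in those with 5 to 20%. In RAC1i the NQO1 ratio was 0.557 (0.530 to 0.587) in cells with under 2%, which is over 1.5-fold lower. It was 0.827 in RAC1i cells with 2 to 5% and 0.760 in those with 5 to 20%.

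HMOX1 (ENSG00000100292, chr22:35380361-35394214, plus strand) encodes haem oxygenase 1, which breaks haem down to iron, carbon monoxide and biliverdin, and is strongly held down by BACH1. It was at 1.71 CPM in DMSO against 4.35 CPM with RAC1i and 4.86 CPM with Combo, from 340, 1023 and 1035 UMIs. It was 2.55-fold higher in RAC1i (2.25 to 2.89) and 2.85-fold higher in Combo (2.52 to 3.23) than in DMSO. The size depended on the depth of the cells compared, from 1.66-fold to 5.66-fold (3.60 to 9.40) in RAC1i. In Combo it ran from 1.26-fold, short of 1.5-fold, to 8.64-fold (5.48 to 14.4). The lowest values were in cells over 40000 UMIs. The level of HMOX1 stayed low in every library, where it ranked 12443, 9483 and 9228 among all genes by UMIs.

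**Figure D2:**
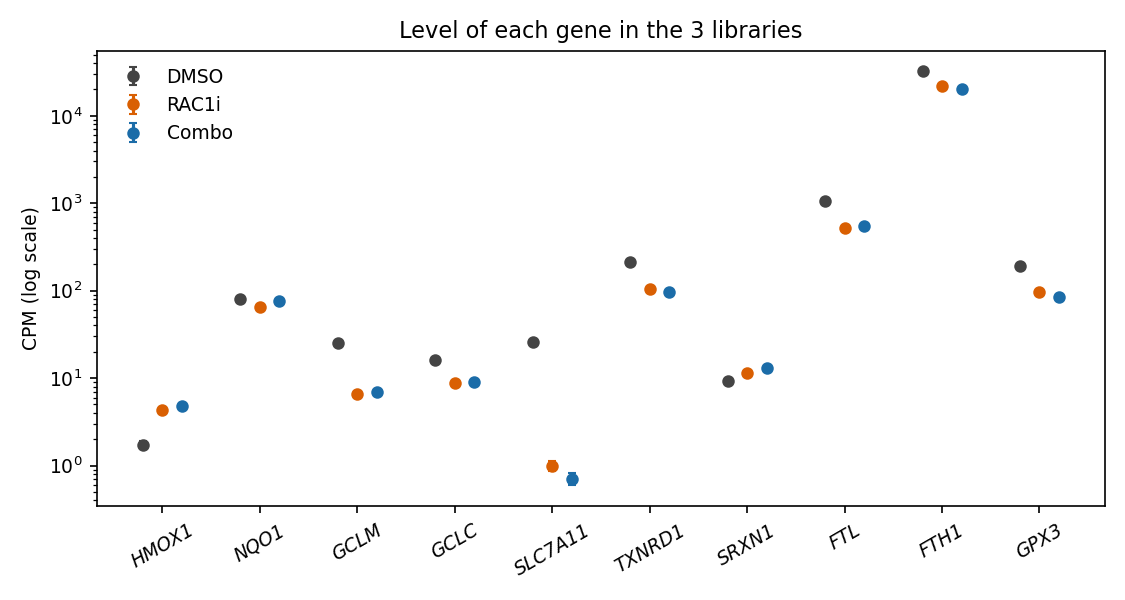
CPM of each of the 10 genes in DMSO, RAC1i and Combo on a log scale, with 95% counting intervals as bars. Levels run from 0.700 CPM for SLC7A11 in Combo to 32077 CPM for FTH1 in DMSO, and HMOX1 stays under 5 CPM in all 3 libraries.

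Part of the higher HMOX1 level lay in few cells. No DMSO cell of 7531 had 3 or more HMOX1 UMIs, and the most in a DMSO cell was 2. A count of 0 allows a share of up to 0.0398% by the limit of 3 counts, and of up to 0.0490% by the exact binomial interval used for the other shares. In RAC1i, 80 cells had 3 or more, 0.783% (0.621 to 0.974) of all cells, and the highest had 34. In Combo, 84 cells had 3 or more, 1.02% (0.814 to 1.26), and the highest had 29. This limit of 3 UMIs was chosen after it was seen that DMSO cells stop at 2, which fixes the DMSO count at 0. These cells held 46.2% of all HMOX1 UMIs in RAC1i and 49.3% in Combo. In the remaining cells HMOX1 was at 2.36 CPM with RAC1i and 2.50 CPM with Combo, against 1.71 CPM in all DMSO cells. At equal depth, after thinning to 5000 UMIs, 0 of 6725 DMSO cells had 2 or more HMOX1 UMIs (up to 0.0446% by the limit of 3 counts), against 36 of 9200 with RAC1i (0.391%) and 27 of 7354 with Combo (0.367%), and the most in a cell was 1, 5 and 9. The HMOX1-rich cells were somewhat deeper than the others, with a median of 24956 against 20962 UMIs in RAC1i and 26942 against 24910 UMIs in Combo, and their median mitochondrial share was 1.74% against 1.66% and 1.53% against 1.59%.

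**Figure D3:**
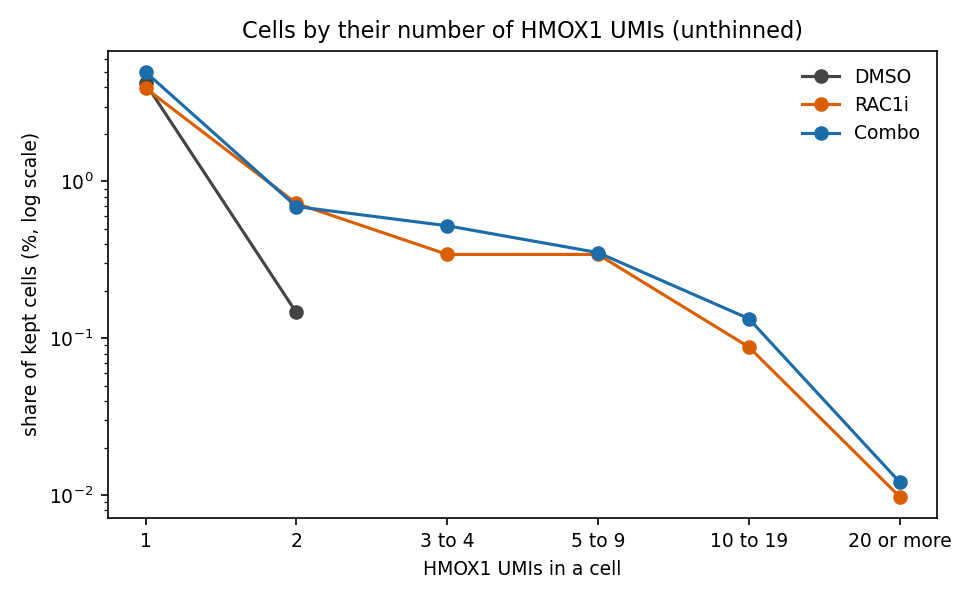
Share of kept cells (percent, log scale) by the number of HMOX1 UMIs in a cell, without thinning, for the 3 libraries. DMSO has no cell beyond 2 UMIs and so ends there, while RAC1i and Combo each go on to 20 or more UMIs.

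Other genes of the set differed between the HMOX1-rich cells and the remaining cells of the same library. NQO1 was 2.47-fold higher (2.22 to 2.75) in the HMOX1-rich cells of RAC1i and 2.54-fold higher (2.31 to 2.78) in those of Combo. TXNRD1 was 1.77-fold higher (1.60 to 1.95) and 2.06-fold higher (1.88 to 2.26), and GCLM was 2.32-fold higher (1.60 to 3.26) and 2.09-fold higher (1.44 to 2.93), although GCLM rested on only 34 UMIs in the rich cells of each library. FTL was at 1.31-fold and 1.41-fold and FTH1 at 1.15-fold and 1.10-fold. GCLC had ratios of 0.809 and 1.37 with intervals that spanned 1, and SLC7A11, with 6 and 4 UMIs, could not be placed at this depth. SRXN1 rested on only 23 and 12 UMIs in the rich cells. Its ratio was 0.884 (0.560 to 1.33) in RAC1i, with an interval that spanned 1, and 0.377 (0.195 to 0.660) in Combo. GPX3 was at 0.989 (0.860 to 1.13) and 0.766 (0.650 to 0.897). The metallothionein MT2A, which binds zinc and other metals, was 2.61-fold higher and 2.29-fold higher in the HMOX1-rich cells, and the zinc exporter SLC30A1 was 3.01-fold higher and 2.76-fold higher. Among other metallothioneins, MT1X had ratios of 2.50 and 2.33, MT1G of 1.77 and 2.65 and MT1F of 1.29 and 1.24, while MT1E had 2 and 0 UMIs. Targets of the stress factor ATF4 differed too, with ratios of 4.79 and 7.46 for DDIT4, 1.58 and 1.53 for DDIT3 and 1.31 and 1.77 for ATF3. TRIB3, at 0.889 and 0.902, had intervals that spanned 1. SESN2 was at 0.729 and 1.46, and ASNS and CHAC1 had at most 5 UMIs. The cells were picked by HMOX1, come from 1 culture each and are not replicates, so these ratios describe the cells and carry no test.

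The ferritins were the most abundant members. FTH1 (ENSG00000167996, chr11:61959718-61967634, minus strand), the heavy chain with the ferroxidase activity that oxidizes iron for storage, was at 32077 CPM in DMSO against 21963 CPM with RAC1i and 20207 CPM with Combo. It held 3.21%, 2.20% and 2.02% of all UMIs and ranked 1 among all genes by UMIs in each library. Its ratio to DMSO was 0.685 (0.684 to 0.686) in RAC1i and 0.630 (0.629 to 0.631) in Combo, which put it just short of 1.5-fold in RAC1i and just past it in Combo when summed over all cells. By mitochondrial share (under 2%, 2 to 5% and 5 to 20%) the FTH1 ratio was 0.550, 0.669 and 0.587 in RAC1i and 0.5004, 0.664 and 0.375 in Combo, and in cells of 5000 to 10000 UMIs it was 0.441 and 0.346. FTH1 crossed that limit with the processing: in RAC1i its log2 ratio was −0.70 with CPM averaged over cells, −0.60 with thinned cells and −0.61 with mitochondrial genes left out of the total, and in Combo it was −0.58 with TMM factors and −0.55 with DESeq2 size factors. FTL (ENSG00000087086, chr19:48965309-48966879, plus strand), the light chain that helps the iron core form, was at 1047 CPM in DMSO against 523 CPM with RAC1i and 549 CPM with Combo. Its ratio was 0.4998 (0.496 to 0.503) in RAC1i and 0.525 (0.521 to 0.528) in Combo, lower than that of FTH1 in both. Ferritin genes have many processed pseudogenes, and how reads that match a gene and its copies were split is not resolved by these counts.

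The ferritins also varied between cells of a library. After each cell was thinned to 5000 UMIs, to set cells at equal depth, the median FTH1 count was 147 UMIs in DMSO against 90 with RAC1i and 86 with Combo, and 90% of cells lay between 53 and 294, between 29 and 222 and between 24 and 200. The middle of the distribution was therefore lower in the treated libraries, with wide overlap between single cells. The median FTL count was 5, 2 and 2 UMIs. FTL and FTH1 went together over cells, with a Pearson r of 0.32 in DMSO (6725 cells), 0.36 in RAC1i (9200 cells) and 0.36 in Combo (7354 cells) on log2 of the thinned count plus 1. FTH1 was the gene most like FTL in RAC1i and Combo, and in DMSO it came after the ribosomal protein gene RPL41 at 0.33. RPS12, RPL12 and RPS2 followed in DMSO, RPSA, NDUFC2, RPLP1 and MRPS6 in RAC1i, and NDUFC2, MYL6, RPSA and CD63 in Combo. The ranking was not the same from the side of FTH1. The gene most like FTH1 was RPS12 in DMSO (0.46), RPLP1 in RAC1i (0.40) and NDUFC2 in Combo (0.48). FTL was at rank 5 for FTH1 in RAC1i, and not among its 5 most like genes in DMSO or Combo. Cells of a library share their culture and base level of capture, so these values are descriptions. All r values between HMOX1 and any gene compared were 0.13 or less, the highest being with ACTB in RAC1i, which in counts this sparse is no finding.

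GPX3 (ENSG00000211445, chr5:151020591-151028988, plus strand) was at 193 CPM in DMSO against 95.4 CPM with RAC1i and 84.0 CPM with Combo. Its ratio to DMSO was 0.495 (0.487 to 0.503) in RAC1i and 0.436 (0.428 to 0.444) in Combo. Cells with 20 or more GPX3 UMIs, a limit chosen after the values were seen, numbered 381 in DMSO (5.06%, 4.57 to 5.58), 55 in RAC1i (0.538%, 0.406 to 0.700) and 60 in Combo (0.728%, 0.556 to 0.936). They held 36.8% of GPX3 UMIs in DMSO, 7.96% in RAC1i and 10.2% in Combo. At equal depth, 3.64% of the DMSO cells had, against 0.663% with RAC1i and 0.666% with Combo, 5 or more GPX3 UMIs. The GPX3-rich cells were deeper than the rest, with medians of 39469 against 26024 UMIs in DMSO. The medians were 46339 and 20909 UMIs in RAC1i, and 40390 and 24798 UMIs in Combo.

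In DMSO the genes most like GPX3 over thinned cells were CP, which encodes the copper-carrying ferroxidase ceruloplasmin (r 0.26), CLU (0.22), SLPI (0.20), ITPR2 (0.17) and NEAT1 (0.14). In RAC1i they were SLPI (0.15), FTH1 (0.15), S100A1 (0.14), CTSB (0.13) and CP (0.13), and in Combo S100A1 (0.14), SLPI (0.13), CTSB (0.13), CLU (0.13) and TXNIP (0.11). CLU, SLPI and CP encode secreted proteins, as GPX3 does. The r of GPX3 with FTH1 was 0.12 in DMSO and 0.11 in Combo. FTH1 was higher in the GPX3-rich cells than in the remaining cells, 1.40-fold in DMSO, 1.78-fold in RAC1i and 1.60-fold in Combo. FTL had ratios of 1.22, 1.14 and 0.973. NQO1 was lower in all 3 libraries, at 0.852, 0.796 and 0.690, as was TXNRD1, at 0.775, 0.876 and 0.849. SLC7A11 was at 0.749 in DMSO, with only 1 and 0 UMIs in the treated rich cells. HMOX1 was at 1.56 in DMSO (1.09 to 2.18), from 39 UMIs in the rich cells. It lay on the other side of 1 in RAC1i, at 0.454 (0.147 to 1.06), and in Combo, at 0.508 (0.186 to 1.11). Those values rested on only 5 and 6 UMIs, with intervals that spanned 1. The intervals of GCLM, GCLC and SRXN1 spanned 1 in every library. FTH1 was at 15772 CPM in RAC1i cells of 5000 to 10000 UMIs and at 24548 CPM in those over 40000 UMIs. In Combo it was at 12371 and 20813 CPM in the same bands, and in DMSO at 35765 and 35257 CPM, with 26306 and 30273 CPM in the bands between. The part of depth in the levels of FTH1, NQO1, TXNRD1 and the other genes in the GPX3-rich cells was not tested.

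The share of cells with at least 1 UMI was compared after thinning to 5000 UMIs, which left out 806 DMSO, 1015 RAC1i and 885 Combo cells that were shallower. SLC7A11 was found in 10.5% of cells in DMSO (9.80 to 11.3), but in 0.543% with RAC1i (0.404 to 0.716) and 0.408% with Combo (0.275 to 0.582), and without thinning in 34.4%, 2.07% and 1.69%. HMOX1 was found in 0.773% (0.578 to 1.01), 1.77% (1.51 to 2.06) and 2.27% (1.94 to 2.64) of cells, and without thinning in 4.37%, 5.44% and 6.70%. GPX3 was found in 44.8%, 30.9% and 28.6% of cells, and without thinning in 76.9%, 62.2% and 61.9%. For SLC7A11 and GPX3 the intervals of DMSO and of both treated libraries did not overlap, and the same held for HMOX1 in the other direction. TXNRD1 was found in 56.2%, 34.4% and 31.4% of thinned cells, GCLM in 11.2%, 3.13% and 3.11%, GCLC in 7.91%, 4.23% and 3.82%, NQO1 in 33.4%, 25.3% and 29.0%, and FTL in 96.3%, 82.1% and 81.8%. The intervals of RAC1i and Combo did not overlap for GPX3 and TXNRD1, which were found in fewer Combo cells, and for NQO1, which was found in more. FTH1 was found in every thinned cell of every library. SRXN1, in 4.33%, 5.02% and 5.59% of cells, had intervals that overlapped between DMSO and RAC1i. A cell line holds no type of cell in which these genes should be absent, so the share that free RNA in the droplets could give was not measured.

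**Figure D4:**
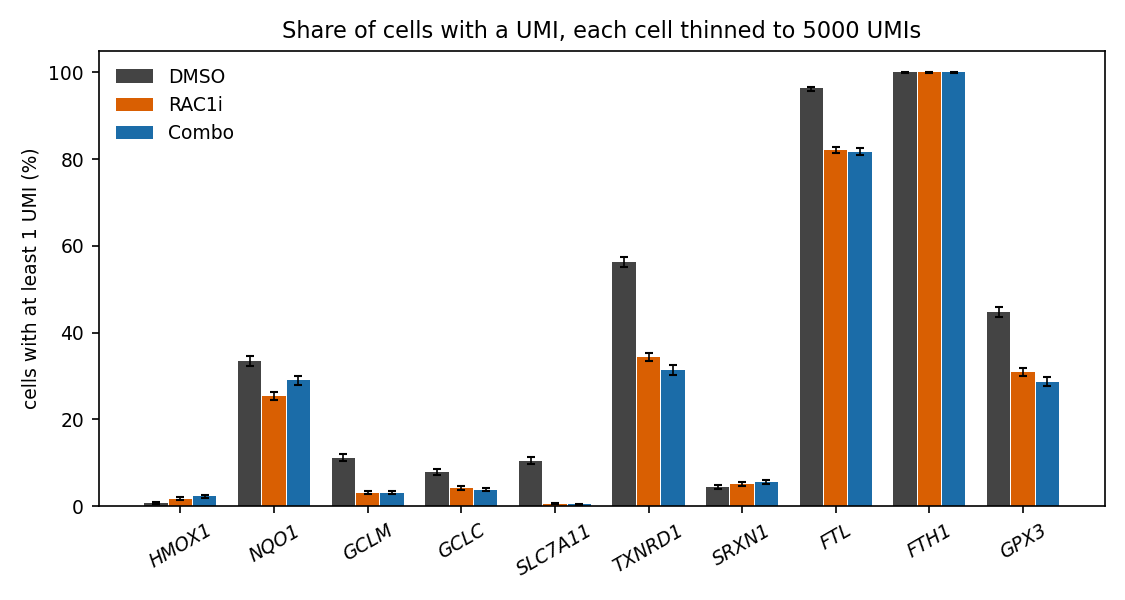
Share of cells (percent) with at least 1 UMI of each gene in DMSO, RAC1i and Combo after every cell was thinned to 5000 UMIs, with exact 95% intervals as bars. SLC7A11 is near 10.5% in DMSO and under 1% in the treated libraries, and FTH1 reaches 100% in all 3.

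Depth and mitochondrial share differed between the libraries and moved with some of the levels. Within bands of 5000 to 10000, 10000 to 20000, 20000 to 40000 and over 40000 UMIs per cell, SLC7A11, GCLM, GCLC, TXNRD1, FTL and GPX3 were over 1.5-fold lower than DMSO in all 4 bands, in RAC1i as in Combo. The size of the SLC7A11 difference varied with depth, from a ratio of 0.225 (0.116 to 0.411) in the shallowest band to 0.0314 in the deepest in RAC1i, while in Combo it was 0.145 (0.0552 to 0.324) in the shallowest, 0.0268 in the deepest and lowest in cells of 20000 to 40000 UMIs, at 0.0197 (0.0145 to 0.0262). The HMOX1 ratio of RAC1i over DMSO was 4.30, 5.66, 2.43 and 1.66 in these bands, and that of Combo over DMSO was 5.13, 8.64, 3.31 and 1.26 (1.01 to 1.57 in the deepest). In cells of 5000 to 10000 and 10000 to 20000 UMIs these HMOX1 intervals were wide. They were 2.03 to 10.5 and 3.60 to 9.40 in RAC1i, and 2.39 to 12.6 and 5.48 to 14.4 in Combo. HMOX1 was at only 1.28 and 1.35 CPM there in DMSO, in 854 and 970 cells. HMOX1 was thus nearest to its DMSO level in the deepest cells. FTH1 had a ratio of 0.441 in the shallowest band of RAC1i and of 0.696 to 0.742 in the others, and of 0.346 in the shallowest band of Combo and 0.590 to 0.699 in the others. In DMSO, SLC7A11 itself was at 7.64 CPM in cells with under 2% mitochondrial UMIs, 25.3 CPM in those with 2 to 5% and 28.5 CPM in those with 5 to 20%. Within those bands its ratio of RAC1i over DMSO was 0.120, 0.0405 and 0.0768, so it was lower than DMSO at like mitochondrial share too. GCLM, TXNRD1 and FTL were likewise over 1.5-fold lower in all 3 of these bands in both treated libraries. GCLC was not in cells with 5 to 20% mitochondrial UMIs, where its ratio was 0.753 (0.613 to 0.917) in RAC1i and 0.863 (0.690 to 1.07) in Combo, and GPX3 was not in RAC1i cells with under 2%, at 0.711 (0.679 to 0.744). The part that the different makeup of cells played in the sums over all cells was not tested further.

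Summed over all cells, Combo and RAC1i alone differed little for this set. None of the 10 genes then passed 1.5-fold in either direction, beside 0.175% of 7443 genes higher and 0.484% lower, and 12% higher and 15.6% lower over all genes with any UMI, so the count for the set is no larger than the background. With TMM factors 20 of all tested genes were higher and 31 lower, against 13 and 36 with CPM. NQO1 was 1.19-fold higher in Combo (1.16 to 1.22), SRXN1 1.14-fold (1.08 to 1.20), HMOX1 1.12-fold (1.02 to 1.22) and FTL 1.05-fold (1.04 to 1.06). SLC7A11 had a ratio of 0.706 (0.571 to 0.871), GPX3 of 0.880 (0.863 to 0.898), FTH1 of 0.920 (0.919 to 0.921) and TXNRD1 of 0.928 (0.911 to 0.945). GCLM at 1.04 (0.969 to 1.12) and GCLC at 1.04 (0.977 to 1.11) were not told apart from RAC1i at this depth, and the sign of both turned under other processing. Without the 8% of cells with the most UMIs, SLC7A11 passed 1.5-fold, with a log2 ratio of −0.73. Within bands of cells some members passed it too. In cells with 5 to 20% mitochondrial UMIs the ratio of Combo over RAC1i was 0.638 (0.633 to 0.644) for FTH1, 0.648 (0.566 to 0.742) for TXNRD1 and 0.634 (0.437 to 0.909) for GCLM, and 1.69 (0.998 to 2.88) for HMOX1. HMOX1 was 1.53-fold higher (1.29 to 1.81) in Combo cells of 10000 to 20000 UMIs and lower than RAC1i in cells over 40000 UMIs, at a ratio of 0.759 (0.626 to 0.919). SLC7A11 had a ratio of 0.644 (0.222 to 1.68) in cells of 5000 to 10000 UMIs and of 0.562 (0.389 to 0.801) in cells of 20000 to 40000 UMIs.

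The regulators of NRF2 lay on both sides of DMSO in RAC1i. NFE2L2, the gene of NRF2 itself, was at 88.0 CPM in DMSO against 74.8 CPM with RAC1i and 67.7 CPM with Combo, a ratio of 0.849 and 0.770. KEAP1 had ratios of 0.746 and 0.766, and BACH1, the repressor of HMOX1, had ratios of 0.659 and 0.672. Of 9 regulators, 3 were over 1.5-fold higher in RAC1i (MAFF, RBX1 and CUL3) and 1 was lower (BACH1), beside 22.7% and 36.9% of all tested genes, with a median log2 ratio of 0.12 beside −0.20 for all genes. In Combo, 2 were over 1.5-fold higher (MAFF and RBX1) and 0 lower, beside 21.3% and 35.4%, with a median log2 ratio of −0.05 beside −0.18. MAFF, a small MAF protein without an activation domain, was at 2.44 CPM in DMSO against 10.9 CPM with RAC1i and 10.7 CPM with Combo, and was thereby 4.46-fold and 4.38-fold higher. MAFG had ratios of 1.37 and 1.31 and MAFK of 1.09 and 0.963. RBX1 and CUL3, parts of the ligase that ubiquitinates NRF2, had ratios of 1.86 and 1.55 in RAC1i and of 1.91 and 1.40 in Combo. These are RNA levels, and NRF2 is controlled mainly as a protein.

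Other targets of NRF2 were mostly lower. Of the 22 of 31 listed targets with at least 10 CPM, 12 were over 1.5-fold lower in RAC1i and 1 higher, beside 36.9% and 22.7% of all tested genes. Their median log2 ratio was −1.13, against −0.20 for all genes. IDH1, which makes NADPH in the cytosol, was at 147 CPM in DMSO against 8.02 CPM with RAC1i and 9.19 CPM with Combo. BLVRA, which reduces the biliverdin made by haem oxygenase, had a ratio of 0.115 in RAC1i and 0.124 in Combo, and the carbonyl reductase CBR1 of 0.211 and 0.231. The 1 tested target over 1.5-fold higher was TRIM16, at 26.1 CPM in DMSO against 79.0 CPM with RAC1i and 65.7 CPM with Combo. HMOX1 and BLVRA, whose products catalyse consecutive steps of haem breakdown, therefore differed from DMSO in opposite directions.

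Of the 13 iron genes tested, 6 were over 1.5-fold lower in RAC1i and 2 higher, beside 36.9% and 22.7% of all tested genes. Their median log2 ratio was −0.54, against −0.20 for all genes. CP was at 338 CPM in DMSO against 60.9 CPM with RAC1i and 48.2 CPM with Combo, and was the lowest of the 13 by ratio (0.180 and 0.143). ACO1, which encodes iron regulatory protein 1, had ratios of 0.298 and 0.370, and the iron importer SLC11A2 of 0.453 and 0.444. The transferrin receptor TFRC, which brings iron into cells, was at 133 CPM in DMSO against 205 CPM with RAC1i and 166 CPM with Combo. PCBP1, which delivers iron to ferritin, was at 137, 263 and 197 CPM. TFRC and PCBP1 passed 1.5-fold in RAC1i, with ratios of 1.55 and 1.91, and not in Combo, with ratios of 1.25 and 1.44. Whether Combo differed from RAC1i in these beyond the spread between cultures could not be tested with 1 library each.

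Of 23 glutathione and peroxidase genes tested, 10 were over 1.5-fold lower in RAC1i and 2 higher, beside 36.9% and 22.7% of all tested genes. Their median log2 ratio was −0.41, against −0.20 for all genes. The lists overlap, so their counts are not separate. GSR, TXN, PRDX1, PRDX6 and MGST1 are also among the other NRF2 targets. GPX4 is counted again among the selenoproteins below, and CHAC1 among the ATF4 targets. GPX8 was at 28.5 CPM in DMSO against 1.72 CPM with RAC1i and 1.88 CPM with Combo. CHAC1, which degrades glutathione, had ratios of 0.0792 and 0.107, and catalase (CAT) of 0.246 and 0.297. GPX4, which protects membrane lipids from peroxidation, had ratios of 0.579 and 0.641. The 2 higher genes were SLC3A2, given above, and TXNIP, which binds and inhibits thioredoxin and was at 46.8 CPM in DMSO against 547 CPM with RAC1i and 736 CPM with Combo. TXNIP was thus higher while TXNRD1, which keeps thioredoxin reduced, was lower.

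GPX3 and TXNRD1 are selenoproteins, and of 10 tested genes for other selenoproteins and for selenocysteine insertion 4 were over 1.5-fold lower in RAC1i and 2 higher, beside 36.9% and 22.7% of all tested genes. Their median log2 ratio was −0.45, and the counts were close to the background. EEFSEC, the elongation factor that brings selenocysteine to the ribosome, was at 19.2 CPM in DMSO against 2.43 CPM with RAC1i and 2.93 CPM with Combo. SELENOP, a secreted carrier of selenium, had ratios of 0.204 and 0.168, and MSRB1 of 0.348 and 0.426. SELENOW was 2.75-fold and 2.38-fold higher, and SELENOS, of the endoplasmic reticulum, 2.09-fold and 2.40-fold higher.

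Genes of other stress pathways that share members or inducers with the set were looked at as well. Of 6 tested targets of ATF4, the factor that also drives SLC7A11 when amino acids are short, 2 were over 1.5-fold higher in RAC1i and 2 lower, beside 22.7% and 36.9% of all tested genes, with a median log2 ratio of −0.41. ATF3 was 22.3-fold higher in RAC1i and 22.2-fold in Combo, and DDIT3 7.46-fold and 7.02-fold higher, while CHAC1 and DDIT4 (0.345 and 0.508) were lower. All 5 tested genes of the metal response, which shares heavy metals as inducers with HMOX1, were over 1.5-fold higher in RAC1i, beside 22.7% of all tested genes, with a median log2 ratio of 5.05. MT2A was at 135 CPM in DMSO against 6652 CPM with RAC1i and 9518 CPM with Combo. MT1X was at 57.5, 1904 and 2850 CPM, and MT1G, with only 5 UMIs in DMSO, was at 20.8 CPM with RAC1i and 42.1 CPM with Combo. In the plot of the related lists, the median of the metal response lies to the right of the other medians, while ATF3 and TXNIP of other lists lie among its genes.

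**Figure D5:**
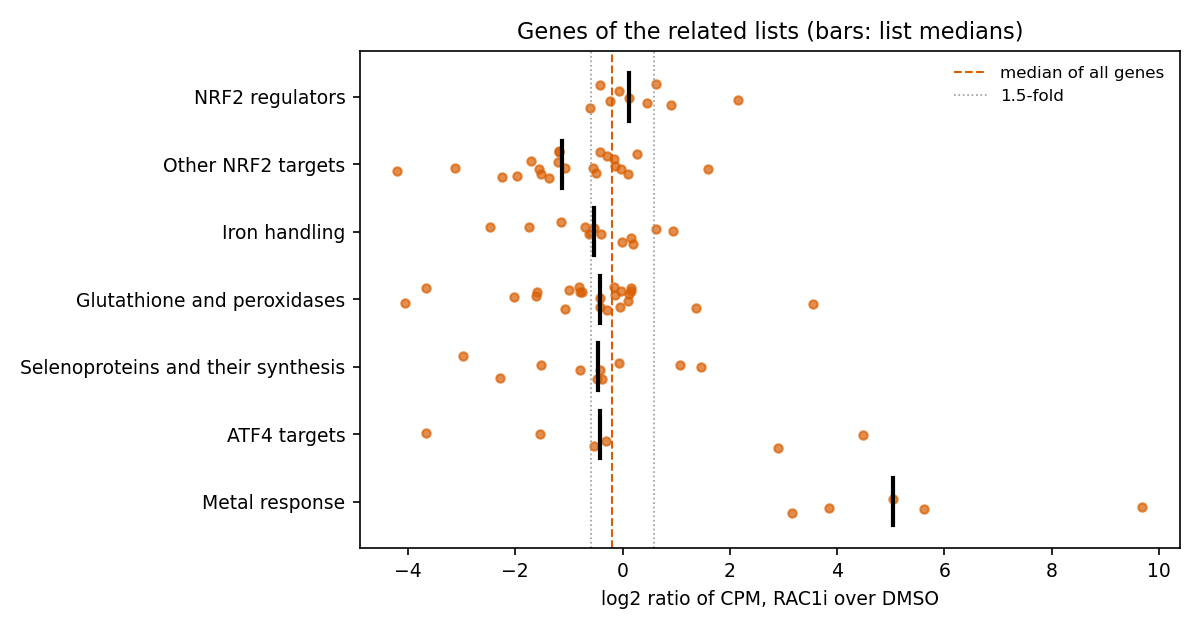
Log2 ratio of CPM of RAC1i over DMSO for each tested gene of the 7 related lists (points, spread vertically at random), with list medians as black bars, the median of all genes as a dashed line and 1.5-fold as dotted lines. The median is −1.13 for other NRF2 targets and 5.05 for the metal response, beside −0.20 for all genes.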

How the data were processed

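The authors deposited, for each library, whole-number UMI counts per gene and cell barcode, made from 10x Genomics 3′ libraries with Cell Ranger 4.0.0 on GRCh38 (submitters' processing notes and methods), with no normalization. Depth is given with the results. No columns were left without a sample.

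A cell was kept if it had more than 1000 genes, no more than 20% mitochondrial UMIs and a complexity above 0.8. Levels are CPM of the UMIs summed over cells of a library. Intervals are exact Poisson (levels), exact conditional (ratios) and Clopper-Pearson (shares), at 95%. UMIs of 1 cell, and cells of 1 culture, are not independent, so intervals and floors (3 counts) cover counting error only. Genes were called at 1.5-fold; background shares use genes that reached 10 CPM in either library. Cells were thinned to 5000 UMIs (seed 1) for shares, spread and correlations. No doublet caller was run. Ratios and intervals were run on simulated Poisson counts. These carry counting error alone, as the intervals assume, so the run cannot speak to spread between cells or cultures. Alternatives covered cell limits, scaling, averaging over cells, thinning and the minimum CPM.

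Named genes were the 10 members, 6 NRF2 regulators, up to 3 highest and 3 lowest genes past 1.5-fold per list, and the 5 genes most correlated with HMOX1, FTL and GPX3 at 50 CPM or more. GSS and GPX4, and all genes named for cells rich in HMOX1 or GPX3, were chosen after values were seen. Members and lists were chosen with earlier results of these data known. GENCODE 44 held 36366 of 36601 gene identifiers. Python 3.11.15, NumPy 2.4.6, SciPy 1.17.1, pandas 2.3.3, Matplotlib 3.10.9, R 4.3.3, edgeR 4.0.16 (TMM factors only) and DESeq2 1.42.0 (size factors only) were used.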

Additional observations from a re-analysis of the deposited data

How the results depend on the processing

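No paired analysis was possible because each condition was 1 library, and for the same reason no library could be left out. Alternatives changed the limits on cells, the scaling, the way cells were combined and the minimum level. No gene of the set that was over 1.5-fold from DMSO changed direction under any of the 10 alternatives that could move its ratio. With DESeq2 size factors, 2 genes rather than 1 were over 1.5-fold higher in Combo than in DMSO, SRXN1 joining HMOX1. Without the 8% of cells with the most UMIs, a stand-in for doublets, 1 gene, SLC7A11, was over 1.5-fold lower in Combo than in RAC1i, in place of 0, which makes 1 gene past the limit in all. The cause of these changes was not tested. FTH1 lay so near 1.5-fold that 3 alternatives in RAC1i and 2 in Combo took it across. The median of all genes was −0.07 in RAC1i and −0.04 in Combo with DESeq2 size factors, and −0.28 and −0.26 with mitochondrial genes left out of the total. Without the minimum of 10 CPM, 12055 of 30407 genes were over 1.5-fold higher in RAC1i than in DMSO and 10326 lower, against 1992 and 3236 of 8778 with it, as many genes of few counts came in; for Combo over DMSO these were 11480 and 10335 against 1862 and 3094, and for Combo over RAC1i 3719 and 4813 against 13 and 36. After thinning, Combo over RAC1i gave 27 higher and 43 lower. Depth limited SLC7A11 most in the treated libraries, where it rested on 233 and 149 UMIs.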

Other observations

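Some further genes are given for the cells rich in HMOX1. They were picked after the values were seen, by their ratio among genes that reached 50 CPM in the rich cells, so that their high ratios follow from the choice and the levels below are a description. RASD1, a RAS-like GTPase induced by glucocorticoids, was at 61.9 CPM in the HMOX1-rich cells of RAC1i against 7.78 CPM in the remaining cells, and at 131 against 8.93 CPM in Combo. RGS16, a regulator of G protein signalling, was at 58.3 against 7.68 CPM in RAC1i and at 106 against 10.4 CPM in Combo. SNAI1, a repressor of epithelial genes, was at 136 against 38.1 CPM and at 249.4 against 37.1 CPM. DDIT4, an inhibitor of mTORC1, was lower in both treated libraries than in DMSO over all cells, at 41.3 CPM in DMSO against 14.2 CPM with RAC1i and 21.0 CPM with Combo, yet stood at 65.9 CPM and 146 CPM in the HMOX1-rich cells.

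Genes for the cells rich in GPX3 were picked in the same way. In DMSO, CP was at 662 CPM in the GPX3-rich cells against 311 CPM in the remaining cells, and ITPR2 at 147 against 67.5 CPM. PI3, a secreted inhibitor of elastase, was at 105.4 against 22.4 CPM in RAC1i and at 102 against 17.4 CPM in Combo, and the small heat shock protein gene CRYAB at 261 against 74.7 CPM and at 274 against 62.2 CPM. CP was at 146 against 60.0 CPM in RAC1i and at 140 against 47.2 CPM in Combo. GPX3-rich cells numbered 55 in RAC1i and 60 in Combo, so few cells stand behind these values.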
